A study of Caenorhabditis elegans with 8 samples.

Results

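Of the 8 XR-seq libraries of the series, 4 were compared here, 2 replicates of mixed-stage *xpc-1* worms and 2 replicates of wild-type (WT) L1 larvae. They are the libraries that the labels give as *xpc-1* mixed stages and as WT L1 larvae, all collected 1 h after UVB. In XR-seq the short strands that excision repair cuts out with a lesion are captured and sequenced, here around cyclobutane pyrimidine dimers (CPDs), so each read marks 1 repair event on 1 strand. The *xpc-1* strain (TG2226) has transcription-coupled repair (TCR) only, whereas WT worms (N2) have TCR and global repair. The stage make-up of the mixed-stage worms was not given in the sources used here, and the L1 larvae were hatched without food, fed and irradiated. Genotype and stage differ together in this comparison, so their parts in any difference cannot be told apart. The L1 libraries of *csb-1* worms (RB1801), which have global repair only, served as a baseline, and unirradiated WT L1 larvae as a blank.

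Global repair finds CPDs anywhere in the genome through the damage sensor XPC. TCR starts where a transcribing polymerase stalls at a CPD on the template strand (TS), the one RNA polymerase II reads (the reverse of the strand a gene is annotated on), and it therefore reports which genes were being transcribed. A gene with TCR has more reads on the TS than on the non-template strand (NTS). In WT, reads of global repair lie on both strands and partly mask this excess. A WT ratio of TS to NTS reads near even therefore does not show that TCR, or repair of the TS, was absent. Adult hermaphrodites carry a large, dividing germline with meiosis and oogenesis. A freshly hatched L1 larva has a gonad primordium with a few precursor cells and otherwise differentiated somatic tissue such as muscle, neurons and gut.

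The mixed-stage *xpc-1* libraries held 4762651 and 143716 kept reads, and the WT libraries 8198054 and 3252700. The second *xpc-1* replicate was therefore 33.1 times shallower than the first. The unirradiated libraries held 10260 and 12916. In the gene that names the mutant, *xpc-1* on chromosome IV, mixed-stage *xpc-1* had 547 TS and 46 NTS reads in replicate 1 and 6 and 1 in replicate 2, against 311 and 158 and then 96 and 69 in WT. These whole-gene counts do not test the label, since reads outside a deletion are counted. A TT pair 6 nt from the 3′ end was found in 45.9% and 44.5% of mixed-stage reads and in 50.4% and 52.4% of WT reads, against 25.9% and 20.1% in the unirradiated libraries.

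Examples of oligonucleotides from the genome show where counted reads ended. Each is a stretch of 24 nt with a TT in that position, and the capitals mark the TT. It stops at the site with the largest number of such mixed-stage read ends in the named gene. That number was a small part of the reads, at 6 of 352 TS reads of *puf-8* in mixed-stage replicate 1. In *T07F10.3* it was 10 of 404. Reads of 24 nt made up 13.8% and 9.46% of mixed-stage reads, so the stretches are not shown to be excised strands. All are from RefSeq WBcel235 and read 5′ to 3′. The first set is from genes in which an excess of TS over NTS reads was called in mixed-stage *xpc-1* only.
*puf-8* (TS, chromosome II, 7297154 to 7297177, plus strand): acacggcaggcatacaTTtgaaac
*gld-3* (TS, chromosome II, 7133573 to 7133596, minus strand): tccattctgaagaaaaTTaatact
*smg-9* (TS, chromosome II, 14749111 to 14749134, plus strand): tcttcccgttcccggaTTactgta
*T07F10.3* (TS, chromosome V, 12868750 to 12868773, plus strand): gtgtccaaaattcaaaTTagcaag
*gln-5* (TS, chromosome IV, 17273294 to 17273317, plus strand): ctgttggcttcatagtTTcgtcca
*cand-1* (TS, chromosome V, 16810148 to 16810171, minus strand): gctgcacacgaagcaaTTgccata
*cyp-31A2* (TS, chromosome IV, 11405081 to 11405104, minus strand): tttcccagaagatgaaTTgcccac
For contrast, 1 oligonucleotide is from a ribosomal protein gene with a TS excess called in both groups, and 1 is from the NTS of a gene with the opposite pattern.
*rpl-15* (TS, chromosome IV, 654296 to 654319, plus strand): tatagccatcaatggaTTaggttg
*C26B2.8* (NTS, chromosome IV, 8015487 to 8015510, plus strand): gtggacacagaaagatTTggctag
The *T07F10.3* oligonucleotide ended 10 and 0 mixed-stage reads and 0 and 0 WT reads, which allows up to 3 in each library at 0. The *gln-5* oligonucleotide ended 6 and 0 mixed-stage reads and 0 and 0 WT reads. The others of the first set also ended WT reads, with 3 and 1 in *puf-8*, 2 and 0 in *gld-3* and 1 and 3 in *smg-9*. Those of *cand-1* and *cyp-31A2* each ended 0 and 1 WT reads. Each site was picked for its mixed-stage reads, so these counts do not compare the groups. The *rpl-15* oligonucleotide ended 10 and 1 mixed-stage reads and 4 and 1 WT reads. Single sites thus hold few reads, and genes were compared over their whole length.

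Over the 13710 protein-coding genes with no annotated gene on the other strand, mixed-stage *xpc-1* had 87.3% and 86.8% of its reads on the TS, against 56.2% and 57.5% in WT. The groups did not overlap. The means were 87 ± 0.354% in mixed-stage *xpc-1* and 56.9 ± 0.919% in WT (SD, n = 2 each), a difference of 30.1 percentage points (two-sided exact permutation test, p = 0.3333, the smallest p that 2 against 2 libraries can give). The *csb-1* libraries had 49.7% and 49.8%, and TT pairs on the TS made up 50.3% of those of both strands.

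Of 46890 annotated genes, 18810 had 10 or more TT pairs on each strand and 20 or more reads per library on average, and were tested with limma (voom) on the log2 ratio of TS to NTS reads, corrected for the TT pairs of each strand. The median ratio was 1.56 in mixed-stage *xpc-1* and 0.24 in WT. In mixed-stage *xpc-1*, 9772 genes (52% of those tested) had a ratio above 0 at an adjusted p under 0.05, against 554 (2.95%) in WT. The WT count depended on which libraries were in the fit. It was 5752 (30.6%) without the shallow *xpc-1* library, 5890 without the deep one and 0 without either WT library, and 5042 (26.8%) when each library was given its own quality weight in limma, an alternative added after seeing the data. The ratio itself was higher in mixed-stage *xpc-1* for 7556 genes (40.2%) and lower for 388 (2.06%). With 2 libraries per group these counts moved with each library. Genes with a higher ratio numbered 11118 without the shallow *xpc-1* library and 305 without the deep one, and 0 without either WT library.

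Genes with a ratio above 0 in both groups numbered 550 (2.92%), and 4396 (23.4%) with quality weights. Genes above 0 in mixed-stage *xpc-1* only, with a tested difference, numbered 7020 (37.3%), but 2894 of them were above 0 in WT with quality weights. A stricter class was therefore used, in which the upper 95% limit of the WT ratio also lay under 0.5. It held 696 genes (3.70%), of which 651 were also in the 2107 (11.2%) of the fit with quality weights. Without the shallow *xpc-1* library it held 3130 genes, without the deep one 61, and without either WT library 0. The limit divided neighbouring values: *pkg-2*, a cGMP-dependent protein kinase gene, lay just inside it with a WT ratio of 0.18, and *dhs-11*, with a WT ratio of -0.50 and fewer reads, just outside.

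**Figure D1:**
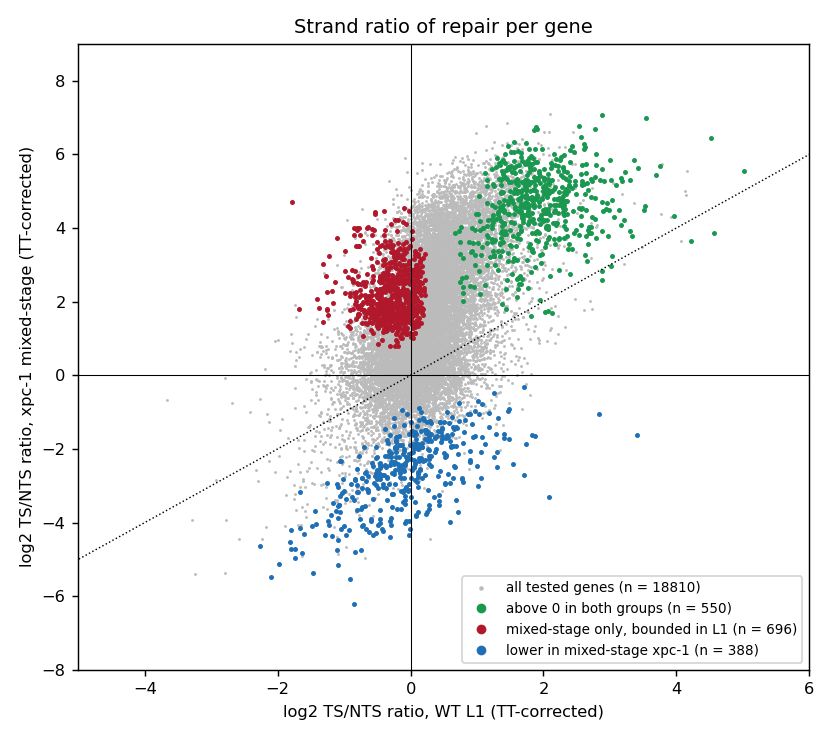
Log2 ratio of TS to NTS reads per gene, corrected for TT pairs, in WT L1 larvae (x axis) against mixed-stage *xpc-1* worms (y axis). Each point is 1 of 18810 tested genes, the dotted line marks equal ratios, and coloured points are the 550 genes above 0 in both groups, the 696 mixed-stage-only genes with a bounded WT ratio and the 388 genes with a lower ratio in mixed-stage *xpc-1*, which lie to the upper right, to the upper left and below the line.

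The 696 bounded mixed-stage-only genes had a median of 6.75 and 7.02 TS reads per kb and 1e6 kept reads (RPKM) in mixed-stage *xpc-1*, against 4.99 and 4.84 in WT. On the NTS the medians were 1.39 and 0.911 RPKM in mixed-stage *xpc-1*, against 5.86 and 6.03 in WT. Over all tested genes the TS medians were 4.65 and 4.63 in mixed-stage *xpc-1*, against 4.91 and 4.96 in WT. The NTS medians of all tested genes were 1.12 and 0 in mixed-stage *xpc-1*, against 4.08 and 4.01 in WT. Fewer NTS reads in the mixed-stage libraries were thus shared with all tested genes. The 696 were chosen by their strand ratios, so their higher TS medians are no separate result. The 696 genes were long, with a median of 4809 bp, against 2214 bp over all tested genes, and a gene on the other strand overlapped 47.8% of them, against 34.6%. The limit on the WT ratio is easier to meet with many reads, so the rule itself favours long genes. Its part in the overlaps was not tested. In *csb-1*, which the rule did not use, 0 of the 696 had a ratio above 0 and 371 had one below 0, against 13.8% and 14.6% of all tested genes, and their median was -0.26. The rule asked for a low WT ratio, and WT worms also have global repair, so the *csb-1* values are no separate test. The WT ratio less the *csb-1* ratio had a median of 0.05 in the 696, against 0.24 over all tested genes. Set against the *csb-1* ratio instead of 0, with quality weights, 664 of the 696 were among the 6904 mixed-stage-only genes (36.7%) and 426 among the 1502 bounded ones (7.99%).

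Among bounded genes with at least 100 reads per library on average, no overlapping opposite gene and every pair of libraries higher in mixed-stage *xpc-1* (232 genes), the 12 with the largest difference were *puf-8*, *F55D12.5*, *cdc-7*, *gld-3*, *smg-9*, *ears-1*, *T07F10.3*, *gln-5*, *cand-1*, *pigl-1*, *cdt-1* and *cyp-31A2*. Of these, *gld-3* is in the germline RNA control list and *cdt-1* in the DNA replication and mitosis list described further on. In mixed-stage replicate 1, between 94.0% and 97.2% of their reads were on the TS, against 36.7% to 51.3% and 36.7% to 58.3% in the WT replicates. In mixed-stage replicate 2, which held 2 to 13 reads in each, the share was 84.6% in *F55D12.5* and 100% in the other 11.

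*puf-8*, a PUF-family RNA-binding protein that keeps germ cells mitotic and helps their differentiation, lies on the minus strand of chromosome II from 7296110 to 7298247. It had 352 TS and 10 NTS reads and then 4 and 0 in mixed-stage *xpc-1*, against 76 and 94 and then 27 and 39 in WT. Mixed-stage reads lay almost wholly on the TS, while WT had more on the NTS in both replicates. The log2 ratio was 4.38 ± 0.50 in mixed-stage *xpc-1* and -0.54 ± 0.40 in WT (SE), a difference of 4.92 ± 0.64 (limma, adjusted p = 0.00218). *gld-3*, the partner of a germline poly(A) polymerase, on the plus strand of chromosome II from 7132643 to 7137522, had 676 TS and 26 NTS reads and then 6 and 0 in mixed-stage *xpc-1*, against 178 and 215 and then 85 and 90 in WT. The strands of WT were near balance, and the difference was 4.66 ± 0.45 (limma, adjusted p = 0.00198).

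The 12 also held 2 genes of DNA replication. *cdc-7*, the kinase that fires replication origins, on the plus strand of chromosome I from 5872174 to 5874343, had 427 TS and 19 NTS reads and then 4 and 0 in mixed-stage *xpc-1*, against 86 and 124 and then 34 and 48 in WT (difference 4.66 ± 0.53, limma, adjusted p = 0.00198). *cdt-1*, which licenses origins, had 404 TS and 15 NTS reads and then 2 and 0 in mixed-stage *xpc-1*, against 130 and 136 and then 58 and 51 in WT (4.13 ± 0.65, limma, adjusted p = 0.00339). *cyp-31A2*, a cytochrome P450 of eggshell formation, had 234 TS and 15 NTS reads and then 5 and 0 in mixed-stage *xpc-1*, against 49 and 65 and then 19 and 19 in WT (4.04 ± 0.54, limma, adjusted p = 0.00225). In *cdt-1* and *cyp-31A2* the WT strands held similar numbers of reads.

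The other named genes with a known role act in most cells. *smg-9* acts in nonsense-mediated mRNA decay, *ears-1* encodes a glutamyl-tRNA synthetase, *cand-1* regulates cullin ubiquitin ligases, *gln-5* encodes a glutamine synthetase and *pigl-1* acts in GPI anchor synthesis. *ears-1* had 539 TS and 17 NTS reads and then 6 and 0 in mixed-stage *xpc-1*, against 176 and 167 and then 91 and 65 in WT (4.41 ± 0.51, limma, adjusted p = 0.00198). A raw WT share of 51.3% and 58.3% on the TS met 57.1% of its TT pairs on that strand. Its WT ratio was -0.18 ± 0.29.

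**Figure D2:**
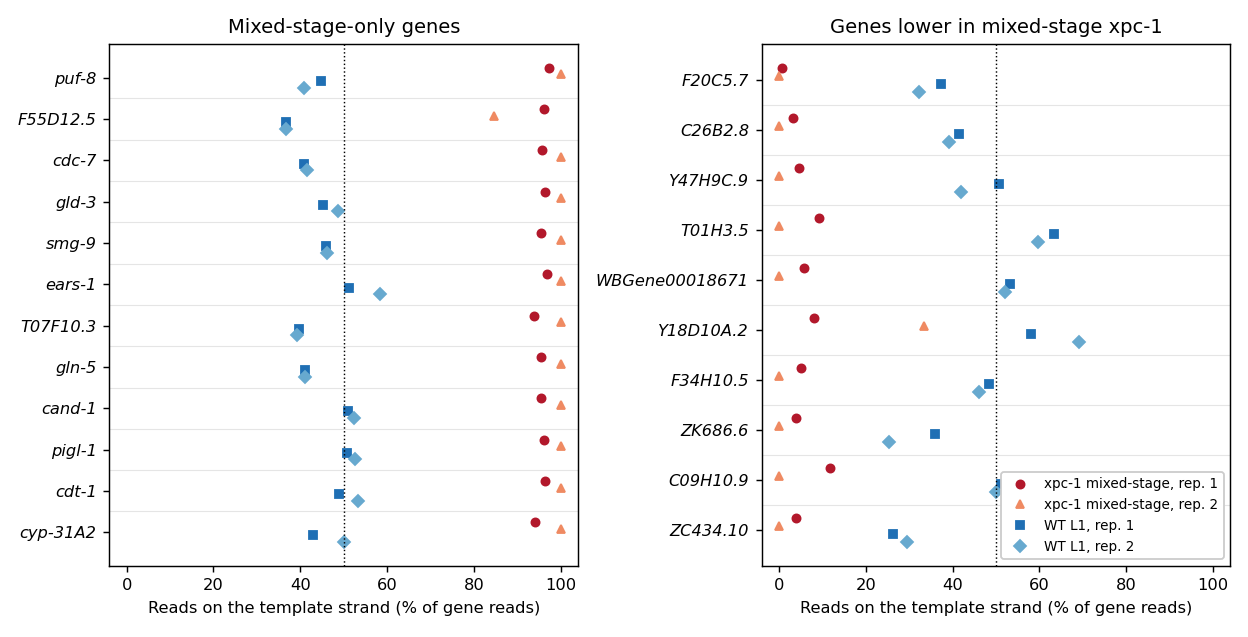
Percent of a gene's reads on the template strand (x axis) in each of the 2 mixed-stage *xpc-1* and 2 WT L1 libraries (symbols) for the 12 mixed-stage-only genes with the largest difference (left) and for 10 genes with a lower ratio in mixed-stage *xpc-1* and no annotated gene on the other strand (right). The dotted line marks 50%. On the left the mixed-stage symbols lie at 84.6% or above and the WT symbols at 58.3% or below, and on the right every mixed-stage symbol lies at 33.3% or below.

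Gene lists of tissues and stages were then read against the shares over all tested genes. Of those, 52% had a ratio above 0 in mixed-stage *xpc-1*, and 40.2% had a higher ratio there than in WT. These shares rise with read number. In a fit of the 8403 genes with at least 100 reads per library on average, 7120 were above 0 in mixed-stage *xpc-1*. In that fit 6660 were higher there, and 2304 were above 0 in WT. The lists were not matched for reads, so a count above the share of all tested genes is not by itself a trait of a list. Whole animals were used, so that more cells of a type and more transcription per cell cannot be told apart. RPKM values of a list are summed over all its members, also those with too few reads to test. Summed likewise over the 13710 protein-coding genes with no gene on the other strand, TS reads made up 10.98 and 10.46 RPKM in mixed-stage *xpc-1*. In WT they made up 5.06 and 5.27 RPKM.

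In the 4 germline and cell division lists most tested members had a ratio above 0 in mixed-stage *xpc-1*. Of these, the list of DNA replication and mitosis is not particular to the germline. Their WT counts are to be read against the 2.95% of all tested genes that were above 0 in WT, or 26.8% with quality weights. Of 33 meiosis genes, all were tested, 33 had a ratio above 0 in mixed-stage *xpc-1*, against 0 in WT (6 with quality weights), and 28 had a higher ratio in mixed-stage *xpc-1*. Of 36 tested genes of DNA replication and mitosis (37 listed, *cdc-45* not matched by name), 36 were above 0 in mixed-stage *xpc-1*, against 0 in WT (7 with quality weights), and 35 were higher. Among the 29 of 30 germline RNA control genes that were tested, 28 were above 0 in mixed-stage *xpc-1*, against 1 in WT (4 with quality weights), and 27 were higher. In the oocyte and eggshell list, 22 of 28 were above 0 in mixed-stage *xpc-1*, against 0 in WT (3 with quality weights), and 22 were higher.

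The median ratios of these lists lay between 2.97 and 3.71 in mixed-stage *xpc-1*, against 0.05 to 0.20 in WT, beside 1.56 and 0.24 over all genes. The bounded class, which took in 3.70% of all tested genes, or 11.2% with quality weights, held 2 to 5 genes of each list, and 12 to 14 with quality weights. TS reads of the meiosis list reached 23.7 and 10.4 RPKM in mixed-stage *xpc-1*, against 4.52 and 4.49 RPKM in WT. Those of the DNA replication and mitosis list reached 27.2 and 15.2 RPKM in mixed-stage *xpc-1*, against 5.50 and 5.63 RPKM in WT. The shallow mixed-stage replicate was lower than the deep one in all 4 lists and still above both WT libraries. Its 10.4 RPKM in the meiosis list was near the 10.46 RPKM of the 13710 protein-coding genes with no gene on the other strand.

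*sun-1*, a nuclear envelope protein that moves chromosomes for homologue pairing, had the largest difference of the meiosis list. It had 288 TS and 5 NTS reads and then 9 and 0 in mixed-stage *xpc-1*, against 46 and 54 and then 14 and 21 in WT, a difference of 5.60 ± 0.64 (limma, adjusted p = 0.00198). *mex-5*, an RNA-binding polarity protein of oocyte and zygote, had 206 TS and 11 NTS reads and then 5 and 0 in mixed-stage *xpc-1*, against 38 and 58 and then 17 and 38 in WT (4.79 ± 0.57, limma, adjusted p = 0.00199). *air-2*, the Aurora B kinase of chromosome segregation, had 287 TS and 10 NTS reads and then 5 and 0 in mixed-stage *xpc-1*, against 45 and 59 and then 18 and 30 in WT (4.92 ± 0.61, limma, adjusted p = 0.00207). In all 3 the NTS held more WT reads than the TS in both replicates.

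Members at the other end of the lists were smaller or not called. *wago-1*, a germline Argonaute, led with *gld-3* in the RNA control list (4.63 ± 0.57, limma, adjusted p = 0.00205), and *fog-1*, which directs germ cells to sperm, had the smallest called difference of that list (1.29 ± 0.36, limma, adjusted p = 0.0246). *nos-2*, a Nanos homologue of primordial germ cells that overlaps a gene on the other strand, had 25 TS and 49 NTS reads and then 0 and 0 in mixed-stage *xpc-1*, against 23 and 24 and then 12 and 12 in WT, and did not pass the test (-0.66 ± 0.62, limma, adjusted p = 0.43). *perm-4*, which acts in the eggshell permeability barrier, had 6 TS and 16 NTS reads and then 0 and 0 in mixed-stage *xpc-1*, against 38 and 28 and then 16 and 11 in WT (-1.32 ± 0.69, limma, adjusted p = 0.168).

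Genes of sperm function were mostly not called. Of the 30 genes that the sperm function list matched, 21 were tested, 7 were above 0 in mixed-stage *xpc-1*, against 0 in WT, and 5 were higher. None of the 29 major sperm protein genes, a family of near-identical copies, met the minimums for reads and TT pairs, so none was tested. Yolk genes, which the adult gut transcribes, had few reads: the 6 vitellogenin genes had 82 and 4 TS reads in mixed-stage *xpc-1*, against 278 and 102 in WT, and 1 of the 3 tested, *vit-2*, had a higher ratio (1.91 ± 0.64, limma, adjusted p = 0.0486), a call that was lost with quality weights (limma, adjusted p = 0.0568). It overlaps a gene on the other strand and had 18 and 2 TS reads in mixed-stage *xpc-1*, against 42 and 20 in WT.

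**Figure D3:**
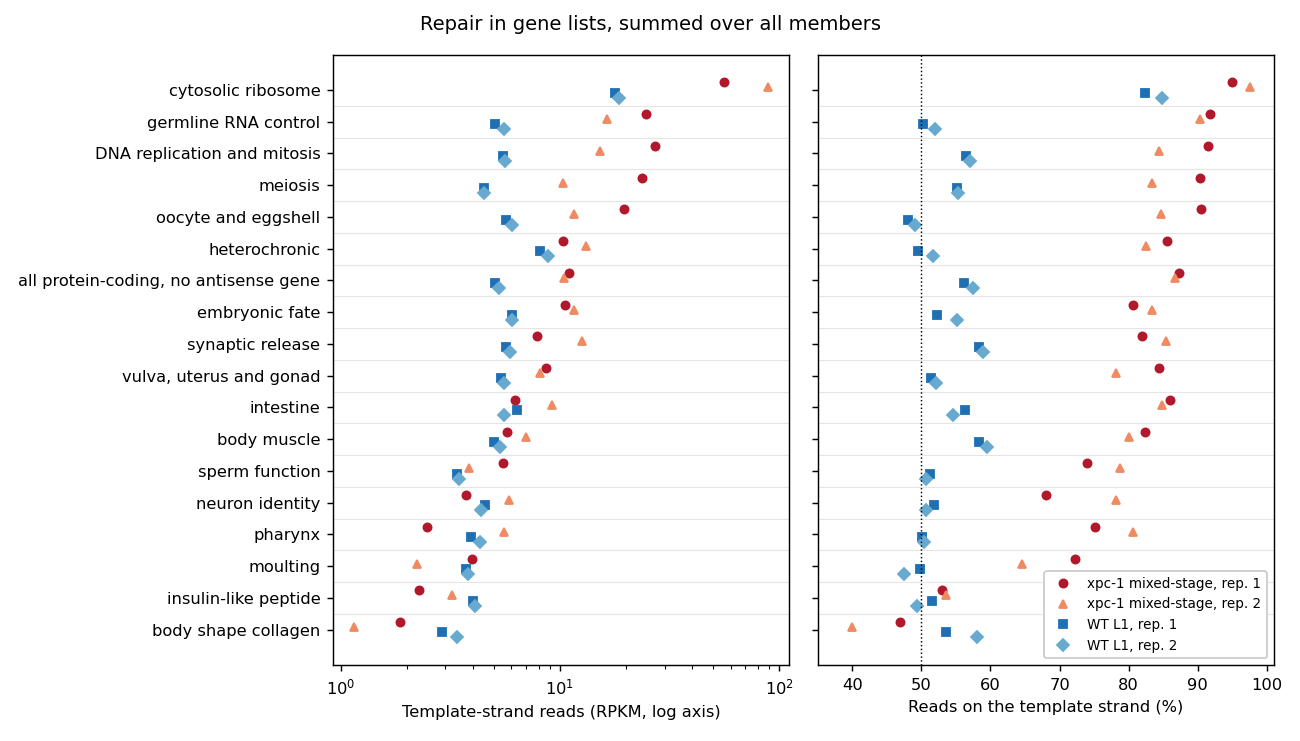
Template-strand RPKM, reads per kb and 1e6 kept reads (left, log axis) and percent of reads on the template strand (right), summed over all members of each list, in the 2 mixed-stage *xpc-1* and 2 WT L1 libraries (symbols). Lists with at least 10 tested genes are ordered by their mean template-strand excess in mixed-stage *xpc-1*. The ribosomal protein list and the germline and cell division lists are at the top. For those lists both mixed-stage symbols lie right of both WT symbols in both panels.

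Body muscle and synaptic release genes were above 0 in mixed-stage *xpc-1*, and most of them also in WT once quality weights were used. Of 31 body muscle genes, 28 were above 0 in mixed-stage *xpc-1*, against 0 in WT, or 21 with quality weights, and 25 had a higher ratio in mixed-stage *xpc-1*. Of 27 synaptic release genes, 23 were above 0 in mixed-stage *xpc-1*, against 2 in WT, or 18 with quality weights, and 19 were higher. Their median WT ratios were 0.57 and 0.49, above the 0.24 of all genes, and their median mixed-stage ratios 2.72 and 2.59. The bounded class held 1 muscle gene and 0 synaptic genes, near its share of 3.70% over all tested genes. With quality weights it held 4 muscle genes and 1 synaptic gene, beside 11.2% of all tested genes. TS reads of the muscle list reached 5.71 and 7.02 RPKM in mixed-stage *xpc-1*, against 5.02 and 5.31 RPKM in WT. Those of the synaptic list reached 7.85 and 12.6 RPKM in mixed-stage *xpc-1*, against 5.65 and 5.89 RPKM in WT. In both lists the 2 mixed-stage libraries lay above both WT libraries. The same held over the 13710 protein-coding genes with no gene on the other strand, at 10.98 and 10.46 RPKM, against 5.06 and 5.27 RPKM in WT. The muscle list lay below those mixed-stage values in both replicates.

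*egl-3*, the neuropeptide proprotein convertase, had 364 TS and 13 NTS reads and then 13 and 0 in mixed-stage *xpc-1*, against 344 and 149 and then 126 and 56 in WT. Both strands of WT held reads with the TS ahead, and the ratio was 4.64 in mixed-stage *xpc-1* and 1.08 in WT, a difference of 3.56 ± 0.44 (limma, adjusted p = 0.00207). *pat-10*, the troponin C of body muscle, had 118 TS and 2 NTS reads and then 6 and 0 in mixed-stage *xpc-1*, against 121 and 66 and then 49 and 21 in WT (3.80 ± 0.70, limma, adjusted p = 0.00542). *tom-1*, a tomosyn that restrains vesicle priming and overlaps genes on the other strand, had a difference of 0.02 ± 0.25 (limma, adjusted p = 0.969). *ttn-1*, the titin homologue, which also overlaps genes on the other strand, had 589 TS and 462 NTS reads and then 17 and 22 in mixed-stage *xpc-1*, against 2023 and 1452 and then 850 and 630 in WT, which was no called difference (-0.18 ± 0.24, limma, adjusted p = 0.573).

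Ribosomal protein genes had the highest TS share of the 20 lists in both groups, at 95% and 97.5% in mixed-stage *xpc-1*, against 82.4% and 84.8% in WT. Of 78, 76 were tested, 72 were above 0 in mixed-stage *xpc-1*, against 48 in WT, or 73 with quality weights, and 44 had a higher ratio. Their median ratio was 4.51 in mixed-stage *xpc-1* and 2.29 in WT, and 0.59 in *csb-1*. TS reads reached 55.8 and 89.2 RPKM in mixed-stage *xpc-1*, against 17.8 and 18.6 RPKM in WT. None was in the bounded mixed-stage-only class.

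The mixed-stage replicates differed in the balance of these lists. TS RPKM in replicate 1 was 1.51 to 2.29 times that of replicate 2 in the 4 germline and cell division lists. It was 1.78 times in the moulting list, 1.62 times in the body shape collagen list and 1.43 times in the sperm function list. It was 0.443 times in the pharynx list, 0.621 times in the synaptic list, 0.626 times in the ribosomal list, 0.638 times in the neuron identity list, 0.683 times in the intestine list and 0.814 times in the body muscle list. Over all protein-coding genes with no gene on the other strand it was 1.05 times. The share of kept reads on chromosome X, which the germline largely silences, was 10.1% and 14.2% in mixed-stage *xpc-1*, against 22% and 21.8% in WT. The part of the stage make-up of each culture in these differences was not tested.

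By chromosome, 5.87% of tested genes on X were bounded mixed-stage-only, against 2.65% to 4.28% on the autosomes. Genes above 0 in both groups with quality weights made up 16.8% on X, against 17.7% on V and 23.4% to 32.1% on the other autosomes. The median mixed-stage ratio was 1.41 on X and 1.07 on V, against 1.58 to 2.20 elsewhere.

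Along the first 2 kb of genes, TS levels were higher in the first 250 bp than in the last, also over all tested genes. In the 6264 of these with that length and no gene on the other strand, the first 250 bp had 17.9 and 20.3 TS RPKM in mixed-stage *xpc-1*. The last 250 bp had 10.7 and 9.77. In WT the 6264 genes had 7.58 and 7.85 in the first 250 bp and 5.08 and 5.22 in the last. The 4 germline and cell division lists held 64 genes at least that long with no gene on the other strand. In these 64 the first 250 bp had 30.3 and 16.1 TS RPKM in mixed-stage *xpc-1*, against 5.50 and 5.25 in WT. The last 250 bp had 23 and 10.9 in mixed-stage *xpc-1*, against 4.39 and 4.52 in WT. Over 265 bounded mixed-stage-only genes the first 250 bp had 15.8 and 11.3 TS RPKM in mixed-stage *xpc-1*, against 6.26 and 6.07 in WT. WT had 7.74 and 8.07 NTS RPKM there, more than on the TS.

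**Figure D4:**
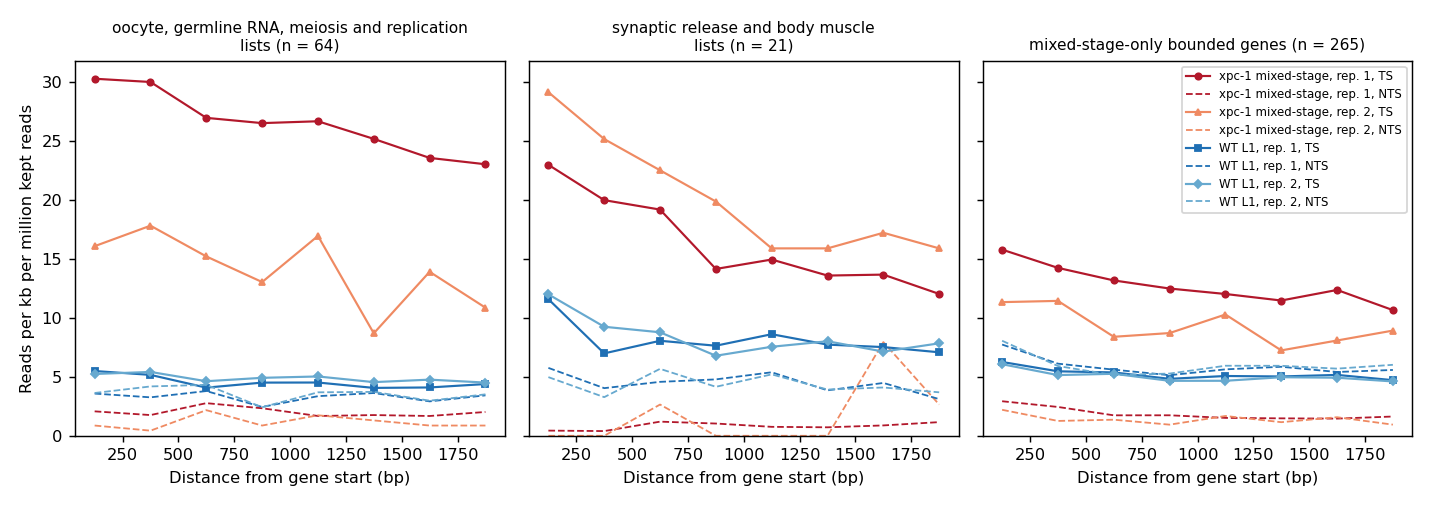
Reads per kb and 1e6 kept reads on the template strand (TS, solid lines with symbols) and non-template strand (NTS, dashed lines) in 250 bp bins over the first 2 kb of genes. The panels show the germline and cell division lists (64 genes), the muscle and synaptic lists (21 genes) and the bounded mixed-stage-only genes (265 genes). Colours mark the 2 mixed-stage *xpc-1* and 2 WT L1 libraries. The mixed-stage TS lines lie above the WT TS lines in all 3 panels, and the order of the 2 mixed-stage replicates turns between the first and the second panel.

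The reverse class, a TS excess called in L1 only, was nearly empty. It held 1 gene (0.00532% of those tested), *M01H9.6*, a non-coding RNA of 208 bp on chromosome IV that overlaps a gene on the other strand. It had 2 TS and 6 NTS reads and then 0 and 0 in mixed-stage *xpc-1*, against 50 and 2 and then 28 and 1 in WT (difference -5.05, limma, adjusted p = 0.00331). The *csb-1* libraries, without TCR, had 31 and 1 and then 65 and 7, so that its strand bias was present there too. At an unadjusted p under 0.05, 622 genes had a lower ratio in mixed-stage *xpc-1* and 3227 a WT ratio above 0. None of this class had 100 reads per library and no gene on the other strand.

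With quality weights 69 genes (0.367%) were L1-only, of which 42 overlapped a gene on the other strand and 30 had a mixed-stage ratio below 0. They were short, with a median of 997 bp. In *csb-1*, 38 of the 69 had a ratio above 0, against 13.8% of all tested genes. When the *csb-1* ratio was the baseline, 15 genes (0.0797%) were L1-only, and 5 of them were among the 69.

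Those named here from the 15 were chosen after their values were seen. *lrk-1*, the LRRK homologue, on the minus strand of chromosome I and overlapping genes on the other strand, had 370 TS and 817 NTS reads and then 14 and 11 in mixed-stage *xpc-1*, against 469 and 293 and then 233 and 128 in WT. The mixed-stage replicates thus disagreed in direction. *dhs-3*, a lipid droplet dehydrogenase, also overlaps genes on the other strand and had 215 TS and 534 NTS reads and then 6 and 5 in mixed-stage *xpc-1*, against 245 and 164 and then 78 and 47 in WT. *fbxa-199*, an F-box gene with none on the other strand, had 41 TS and 40 NTS reads and then 2 and 1 in mixed-stage *xpc-1*, against 96 and 31 and then 33 and 13 in WT. *ilys-2*, an invertebrate lysozyme gene with none on the other strand, had 6 TS and 10 NTS reads and then 0 and 0 in mixed-stage *xpc-1*, against 37 and 16 and then 13 and 6 in WT. The mixed-stage ratio of *ilys-2* rests on 16 reads and was -0.71 ± 0.51 (SE). In the main fit the difference was called in *lrk-1* and *dhs-3* (limma, adjusted p = 0.00711 and 0.0151). It was not called in *fbxa-199* and *ilys-2* (limma, adjusted p = 0.111 and 0.0971), nor with quality weights (limma, adjusted p = 0.0694 and 0.09). *fbxa-199* also had a ratio above 0 in *csb-1* (0.73, limma, adjusted p = 4.03e-05).

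The 388 genes with a lower ratio in mixed-stage *xpc-1* were mostly genes whose NTS was repaired there. Of them, 362 had a mixed-stage ratio below 0 (711 in all, 3.78% of those tested), and 1 was above 0 in WT, or 49 with quality weights. A gene on the other strand overlapped 66.2%, against 34.6% of all tested genes. The remaining 131 had no annotated gene on the other strand. Their reads lay 16.2% and 10.8% on the TS in mixed-stage *xpc-1*, against 51.7% and 51.5% in WT and 53.4% and 53.2% in *csb-1*.

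The 10 of these with at least 100 reads and the largest differences, a choice made after values were seen, were *F20C5.7*, *C26B2.8*, *Y47H9C.9*, *T01H3.5*, *WBGene00018671*, *Y18D10A.2*, *F34H10.5*, *ZK686.6*, *C09H10.9* and *ZC434.10*. *F20C5.7*, on the minus strand of chromosome IV from 8744411 to 8745691, had 2 TS and 307 NTS reads and then 0 and 3 in mixed-stage *xpc-1*, against 46 and 77 and then 11 and 23 in WT (-4.64 ± 1.10, limma, adjusted p = 0.0141). *C26B2.8*, on chromosome IV (plus strand, 8014149 to 8015722), had 11 and 337 and then 0 and 6 in mixed-stage *xpc-1*, against 56 and 79 and then 18 and 28 in WT (-3.995 ± 0.571, limma, adjusted p = 0.00262). Reads of the mixed-stage libraries thus lay on the strand opposite to the one the annotation predicts. *ZK686.6* and *ZC434.10* had WT ratios of -2.11 and -1.74, so that WT leaned the same way.

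Some cuticle genes were in this group. Of 6 adult cuticle genes 3 were tested, and *bli-1* and *bli-2*, collagens of the adult cuticle struts, were lower. *bli-1* had 11 TS and 192 NTS reads and then 1 and 2 in mixed-stage *xpc-1*, against 58 and 37 and then 34 and 23 in WT (-3.75 ± 0.91, limma, adjusted p = 0.015). *bli-2* had 3 and 161 and then 0 and 3 in mixed-stage *xpc-1*, against 30 and 28 and then 4 and 12 in WT (-4.06 ± 0.98, limma, adjusted p = 0.015). Both overlap a gene on the other strand. *bli-6*, the third tested and with none on the other strand, leaned the other way. It had 22 TS and 0 NTS reads and then 0 and 0 in mixed-stage *xpc-1*, against 28 and 43 and then 18 and 16 in WT. Its difference was 3.33 ± 1.43 (limma, adjusted p = 0.103), and with quality weights it was called higher (4.06, limma, adjusted p = 0.00297). Of 11 tested body shape collagens, *sqt-3* was higher (3.23 ± 0.83, limma, adjusted p = 0.0188) from 9 and 1 TS reads in mixed-stage *xpc-1*, against 14 and 13 in WT, while *dpy-17* (-2.11 ± 0.61, limma, adjusted p = 0.0282) and *lon-3* (-2.997 ± 0.62, limma, adjusted p = 0.00839) were lower. *sqt-3* and *lon-3* overlap a gene on the other strand. *dpy-17*, with none, had 18 TS and 31 NTS reads and then 0 and 0 in mixed-stage *xpc-1*, against 52 and 18 and then 33 and 10 in WT.

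Among the other lists, 9 of 27 moulting genes, 16 of 30 neuron identity genes, 8 of 16 tested pharynx genes, 23 of 29 tested intestine genes, 12 of 20 tested embryonic fate genes and 18 of 28 vulva, uterus and gonad genes were above 0 in mixed-stage *xpc-1*, against 0 to 1 in WT (2 to 6 with quality weights). Of 40 insulin-like peptide genes listed, 15 were tested and 2 were above 0 in mixed-stage *xpc-1*. All 12 heterochronic genes matched by name, regulators of larval stage timing, were tested, and 11 were above 0 in mixed-stage *xpc-1*, against 1 in WT (5 with quality weights). *lin-41*, which holds back adult fates, had 964 TS and 45 NTS reads and then 14 and 2 in mixed-stage *xpc-1*, against 437 and 315 and then 199 and 105 in WT (3.45 ± 0.50, limma, adjusted p = 0.00264). This gene is also in the oocyte and eggshell list, and some other lists share members too. *inx-22*, an oocyte gap junction protein, had 400 and 17 and then 4 and 0 in mixed-stage *xpc-1*, against 77 and 82 and then 39 and 39 in WT (4.24 ± 0.55, limma, adjusted p = 0.00218).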

How the data were processed

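XR-seq positions of 8 libraries were analysed. Adaptors were trimmed with cutadapt and reads aligned to ce11 with Bowtie 2, then filtered for duplicates. Each deposited line gives 1 read, with the mapping quality assigned by the authors' aligner as its score, and the read name ends in a number of copies whose meaning was taken from the values. Reads of 19 to 24 nt on nuclear chromosomes were kept where that score was above 20, each counted once, and placed by midpoint in Ensembl 115 genes of WBcel235, the assembly that ce11 names. TS and NTS counts per library were fitted with limma 3.58.1 (voom) in R 4.3.3, with a term per library and a strand term per group, TT pairs as offset, and Benjamini-Hochberg adjustment over all 18810 genes. Values given with ± are SD over 2 libraries for percentages and RPKM, and SE for log2 ratios. With 2 libraries per group, p-values measure only the spread between these samples. Members and lists were chosen with earlier results of these data known. Genes named were the 12 with the largest difference among bounded mixed-stage-only genes with at least 100 reads, no overlapping opposite gene and all 4 pairs higher, and from the lists the 2 members with the largest and the 2 with the smallest difference, as needed. *lin-41* and *inx-22* also meet the list rule.

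The fits were tested on simulated data of 18810 genes with a replicate noise of 0.1. The noise was chosen and not estimated from the data, and most simulated ratios were 0. In the data 52% of genes were called above 0 in mixed-stage *xpc-1*. The figures that follow therefore describe the simulated setting and not the recovery in these data. For a change of 2 on the log2 scale in 200 genes, voom recovered 15% in mixed-stage *xpc-1*, 44% in WT and 4% of differences, with 0 false calls. With quality weights it recovered 29%, 96% and 26.5%, with at most 1 false call, and the quasi-binomial fit recovered 74%, 99% and 70.5%, with 32 to 53 false calls. Same-numbered libraries did not deviate together (r = 0.02 over 8403 genes with at least 100 reads). L1 *xpc-1* libraries and RNA-seq were not analysed here. Tables were computed in Python with pandas and scipy.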

Additional observations from a re-analysis of the deposited data

Results flagged for a closer look

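In 131 genes with no annotated gene on the other strand, the TS to NTS ratio was lower in mixed-stage *xpc-1* than in WT (limma, adjusted p under the threshold for the difference itself), with a median of -2.42 in mixed-stage *xpc-1* and -0.02 in WT. In the *csb-1* libraries, which the comparison of mixed-stage *xpc-1* with WT did not use, 38 of the 69 L1-only genes of the fit with quality weights had a ratio above 0.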

How the results depend on the processing

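The difference in pooled TS share stayed between 28.5 and 31.2 percentage points under all alternatives, and between 29.5 and 30.8 when 1 library was left out. Counts depended on the weighting. Genes above 0 in WT (554) numbered 6091 with a quasi-binomial fit, 5042 with quality weights, 5401 with copies counted, 3368 against *csb-1*, 2304 with at least 100 reads, 1325 with at least 5, 360 with WT thinned, 264 without a gene on the other strand, 120 for protein-coding genes and 0 with unweighted ratios or at least 500 bp from any gene. Mixed-stage-only genes with a bounded WT ratio (3.70% of the genes tested) made up 16.4% with the quasi-binomial fit, 12.4% with at least 100 reads, 11.2% with quality weights, 8.68% with copies, 7.99% against *csb-1*, 2.53% with WT thinned, 2.16% without a gene on the other strand, 2.14% at 500 bp and 0.595% with unweighted ratios. With the replicate block they made up 1.78%, and L1-only genes numbered 4. L1-only genes (1) numbered 250 with copies, 111 with the quasi-binomial fit, 69 with quality weights, 26 with at least 5 reads, 15 against *csb-1* and 9 without the TT correction, and 0 with WT thinned, for protein-coding genes, without a gene on the other strand, at 500 bp or with unweighted ratios. Mixed-stage-only genes (7020) numbered 4548 with unweighted ratios, 4468 with at least 100 reads, 4353 without a gene on the other strand and 1054 at 500 bp. Genes above 0 in mixed-stage *xpc-1* (9772) numbered 6251 without a gene on the other strand and 1558 at 500 bp. Higher ratios (7556) numbered 4555 with unweighted ratios, 4593 without a gene on the other strand and 1059 at 500 bp. Lower ratios (388) numbered 1069 with copies, 995 with the quasi-binomial fit, 638 with at least 5 reads, 627 with quality weights, 230 for protein-coding genes, 224 with at least 100 reads, 146 with unweighted ratios, 114 without a gene on the other strand and 27 at 500 bp. The filters on reads, gene class and distance also tested other numbers of genes, from 3932 at 500 bp to 23755 with at least 5 reads. The cause of the other changes was not tested.

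Leaving out 1 library gave 2166 to 11890 genes above 0 in mixed-stage *xpc-1*, 0 to 5890 in WT, 0 to 6116 mixed-stage-only, 0 to 16.6% of tested genes bounded, 0 to 133 L1-only, 0 to 11118 higher and 0 to 1137 lower, with the lone library assumed to vary like the others. The count of higher ratios was 0 without either WT library, 305 without mixed-stage replicate 1 and 11118 without replicate 2. The 22 genes named for the largest differences in each direction kept their direction under each alternative that tested them, and 69 of their 377 values no longer passed the threshold, all with WT replicate 1, WT replicate 2 or mixed-stage replicate 1 left out, except 3 with unweighted ratios. The replicate numbers come from the labels and nothing says that they pair cultures.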
